A study of Mus musculus with 14 samples.

Results

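A set of 10 genes of vascular smooth muscle and pericytes was followed in gastrocnemius, a calf muscle, of tumor-bearing mice whose diet either held β-hydroxy-β-methylbutyrate (HMB, formed in the body from leucine) or did not. Members were matched by gene symbol, and 10 of 10 were measured, each by 1 probeset, among 19505 genes on the array. Of these, 6 encode contractile or cytoskeletal proteins of smooth muscle (Acta2, Myh11, Tagln, Cnn1, Lmod1 and Smtn), and 4 encode receptors or signaling proteins of pericytes and other mural cells (Pdgfrb, Rgs5, Cspg4 and Notch3). Total RNA of 14 muscles was hybridized to Clariom S mouse arrays, 1 array per sample, with 7 control and 7 HMB arrays named by title. According to the methods, the mice were male C57BL/6. All carried subcutaneous tumors of Panc02, a mouse pancreatic cancer cell line, all were fed AIN-93G, and the HMB group received HMB in it from before the tumor cells were injected. The treatment text of every array also mentions anti-PD1 (200 µg every 3 days), an antibody against an immune checkpoint receptor. In the methods, mice of that experiment received either this antibody or an isotype control. The labels do not say array by array whether the mouse had the antibody, nor its age at dissection. The extraction text names tumor samples, whereas the tissue label is gastrocnemius. The titles number the arrays, but nothing says that equal numbers are related animals, and p-values measure the spread between these samples only.

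Smooth muscle cells ring the arteries and veins of a muscle, and pericytes lie along its capillaries, embedded in the same basement membrane as the endothelium. Smooth muscle shortens when myosin pulls on α-actin filaments, and serum response factor (SRF) with its coactivator myocardin switches on many of the genes for this apparatus through a promoter element called the CArG box. Pericytes are recruited to the vessel by PDGF-B from the endothelium, which binds Pdgfrb, and Notch3 on mural cells receives ligands such as Jag1 and keeps the cells differentiated. Fewer cells of a type and less RNA per cell cannot be told apart in such bulk samples.

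Acta2, Cnn1 and Lmod1, 3 contractile genes with an entry, are shown for the CArG-like letters before their start (RefSeq, build GRCm38.p6). The 250 bases before each gene start are written 5′ to 3′. Capitals mark matches to the CArG box (CC, then 6 bases each A or T, then GG) with at most 1 mismatch, and to the word TGGGAA, bound by the Notch partner RBPJ, on either strand.
Acta2, chr19:34255374-34255623, minus strand: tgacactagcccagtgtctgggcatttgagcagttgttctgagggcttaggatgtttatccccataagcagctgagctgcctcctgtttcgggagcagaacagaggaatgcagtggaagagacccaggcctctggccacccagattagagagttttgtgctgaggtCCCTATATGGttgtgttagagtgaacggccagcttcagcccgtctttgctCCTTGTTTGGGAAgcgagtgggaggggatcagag
Cnn1, chr9:22099003-22099252, plus strand: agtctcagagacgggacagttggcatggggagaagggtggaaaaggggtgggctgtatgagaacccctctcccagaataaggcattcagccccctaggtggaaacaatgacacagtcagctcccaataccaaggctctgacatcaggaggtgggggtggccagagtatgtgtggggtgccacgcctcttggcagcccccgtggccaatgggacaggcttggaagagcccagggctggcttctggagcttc
Lmod1, chr1:135324563-135324812, plus strand: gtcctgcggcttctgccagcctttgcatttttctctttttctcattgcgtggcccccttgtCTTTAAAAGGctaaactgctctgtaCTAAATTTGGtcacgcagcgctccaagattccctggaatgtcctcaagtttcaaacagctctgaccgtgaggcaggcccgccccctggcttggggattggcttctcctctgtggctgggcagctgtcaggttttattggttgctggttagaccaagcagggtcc
In Acta2 the matches were CCCTATATGG (84 to 75 bases before the start) and CCTTGTTTGG (34 to 25 bases), and the second overlapped a TGGGAA (27 to 22 bases). Lmod1 held CTTTAAAAGG and CTAAATTTGG, and Cnn1 held none of these words in this window. Of the 7 members with an entry, 0 had an exact CArG box (1.47% of all 32851 promoters), 3 had a match with at most 1 mismatch (Acta2, Lmod1 and Cspg4, against 18.6% of all promoters) and 2 had TGGGAA or its reverse complement (Acta2 and Smtn, against 21.6%). Among 32 promoter entries of other smooth muscle genes, some of which have more than 1 entry, 3 had an exact box (9.38%) and 12 a match with at most 1 mismatch (37.5%). A match describes these letters and is no measured binding site. Myh11, Tagln and Pdgfrb are named only.

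Values below are log2 intensities as mean ± SD with n = 7 arrays per group, and differences are HMB minus control in log2 units. Each level belongs to its own probeset and is not set against that of another gene. Background was read from the intron control probesets, whose 95th percentile was 10.53 to 10.87 and whose median was 6.25 to 6.67 over the arrays. Acta2, Tagln, Smtn, Pdgfrb and Rgs5 exceeded the percentile on 14 of 14 arrays and Myh11 on 1. Cnn1, Lmod1, Cspg4 and Notch3 stayed under it on all 14, although they lay above the intron median on 9, 13, 13 and 14 arrays. The muscle itself was well marked: 12 of 12 fast fiber genes exceeded the percentile on every array, and their mean was 18.24 ± 0.11 in control and 18.28 ± 0.08 in HMB. Control 7 stood apart, with a median correlation of 0.960 with the other arrays (the others 0.977 to 0.986) and B cell markers at 10.98, against 3.61 to 3.88 on the other controls and 3.51 to 4.07 on HMB arrays.

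The comparison asked whether HMB in the diet changes gene expression in muscle of mice with tumors. By mean, all 6 contractile genes were lower in HMB muscle, by 0.09 to 0.66 log2 units, and 3 of 4 mural genes were higher, by 0.06 to 0.33, with Pdgfrb at -0.07 but at 0.0050 when each array was centered on its median. The sign of Tagln rested on 1 array, HMB 1. None of the 10 members passed limma's adjusted threshold of 0.05, nor did any of 19505 genes (0.0%). The members' adjusted p by limma were 0.990 to 0.996. An unadjusted p under 0.05 by limma was reached by 885 genes, where a share near 0.05 would reach it if no gene differed. At an unadjusted p under 0.05 by limma, Acta2 and Myh11 were lower (2 of 10 members, against 2.19% of all genes) and Notch3 was higher (1 of 10, against 2.35%). Under the alternatives, Notch3 lost this level in 9 of 23 settings, among them without control 7 or control 2, Acta2 in 1 of 24 (median centering) and Myh11 in 0 of 24. Over all genes, 48.3% had a lower mean in HMB, against 7 of the 10 members. The median difference was -0.12 over the members, -0.28 over the contractile and 0.18 over the mural genes, and 0.0090 over all genes.

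**Figure D1:**
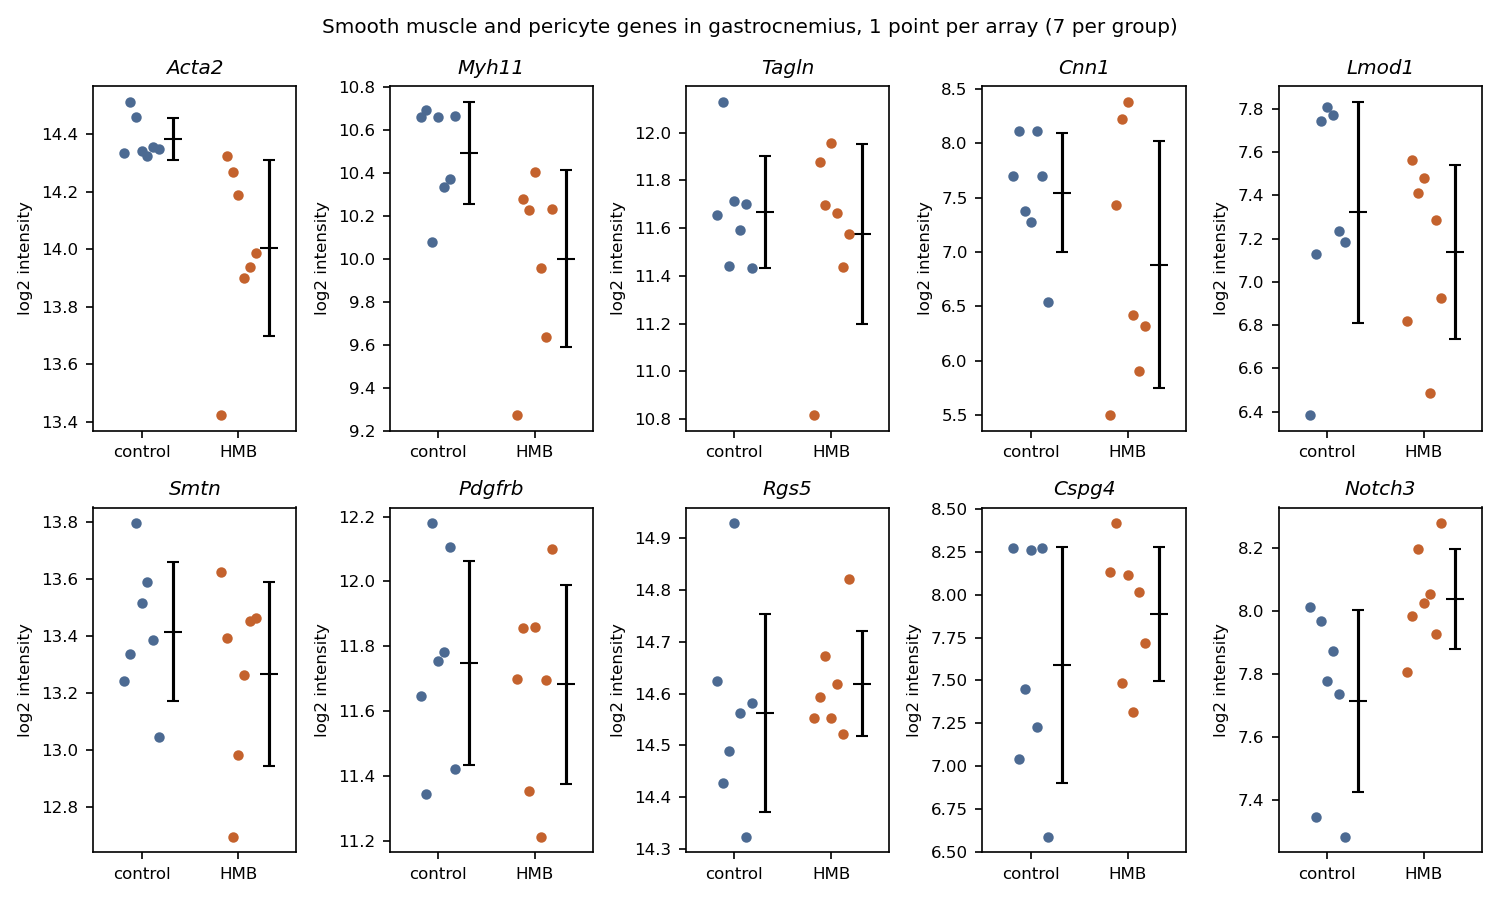
Log2 intensity of each of the 10 genes on every array (points, 7 control in blue and 7 HMB in orange), with mean and SD (black bars) beside each group and a separate axis range per gene. All 7 HMB points of Acta2 and Myh11 lie below the control mean and all 7 of Notch3 above it, while the points of Tagln, Smtn, Pdgfrb and Rgs5 overlap widely.

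Acta2 encodes smooth muscle α-actin, the thin filament of the contractile apparatus. It was between 14.32 and 14.51 on control arrays (median 14.35) and between 13.42 and 14.32 on HMB arrays (median 13.99). The 7 controls were close together and the HMB arrays spread downward, with HMB 1 the lowest. No HMB array overlapped the controls, which held for 1 of the 10 members and for 0.0359% of all genes in this direction. The gap, however, was 0.00090, between control 5 and HMB 2, and it closed under renewed quantile normalization (6 of 7 HMB arrays below the lowest control) and with each array centered on its median (5 of 7). Means were 14.38 ± 0.07 and 14.003 ± 0.30, a difference of -0.38 (95% confidence interval -0.67 to -0.09, adjusted p 0.990 by limma). Without HMB 1 the difference was -0.28.

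Myh11, the smooth muscle myosin heavy chain and the most specific marker of mature smooth muscle among the members, was between 10.08 and 10.69 in control (median 10.66) and between 9.27 and 10.40 in HMB (median 10.23). The groups overlapped, with 3 of 7 HMB arrays below every control and 7 of 7 below the control mean. The difference was -0.49 (10.50 ± 0.24 and 10.002 ± 0.41, 95% confidence interval -0.88 to -0.10, adjusted p 0.990 by limma). HMB 1 was again the lowest array, and without it the difference was -0.37.

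Tagln (transgelin, or SM22α), an actin-binding protein abundant in smooth muscle, overlapped between the diets. It ran from 11.43 to 12.13 in control (median 11.65) and from 10.82 to 11.96 in HMB (median 11.66). Apart from HMB 1 the HMB arrays lay within the range of the controls. The difference was -0.09 (11.67 ± 0.23 and 11.57 ± 0.38, 95% confidence interval -0.46 to 0.28), and without HMB 1 it was 0.034.

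Cnn1 (calponin 1), which binds actin and restrains myosin in smooth muscle, was the most variable member. It was between 6.54 and 8.12 in control (median 7.70) and between 5.50 and 8.39 in HMB (median 6.42). HMB 3 and HMB 4 were above every control, and HMB 1, 5, 6 and 7 were below every control. The difference of -0.66 (7.55 ± 0.55 and 6.88 ± 1.14) had an interval from -1.59 to 0.26, and it was -0.43 without HMB 1 and -0.91 without HMB 4. These levels were under the intron percentile on all arrays.

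Lmod1 (leiomodin 1), which nucleates actin filaments in smooth muscle, ranged from 6.38 to 7.81 in control (median 7.23) and from 6.48 to 7.56 in HMB (median 7.29). The HMB arrays lay inside the control range. Its difference was -0.18 (95% confidence interval -0.69 to 0.32), and single arrays moved it from -0.34 (without control 1) to -0.07 (without HMB 5). Smtn (smoothelin), a cytoskeletal protein of contractile smooth muscle, ranged from 13.05 to 13.80 in control (median 13.39) and from 12.70 to 13.63 in HMB (median 13.39), with a difference of -0.15 (95% confidence interval -0.49 to 0.20). It was -0.05 without HMB 3 and -0.08 without control 3. On HMB 1, the array lowest in Acta2, Myh11, Tagln and Cnn1, Smtn was the highest of the HMB arrays.

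**Figure D2:**
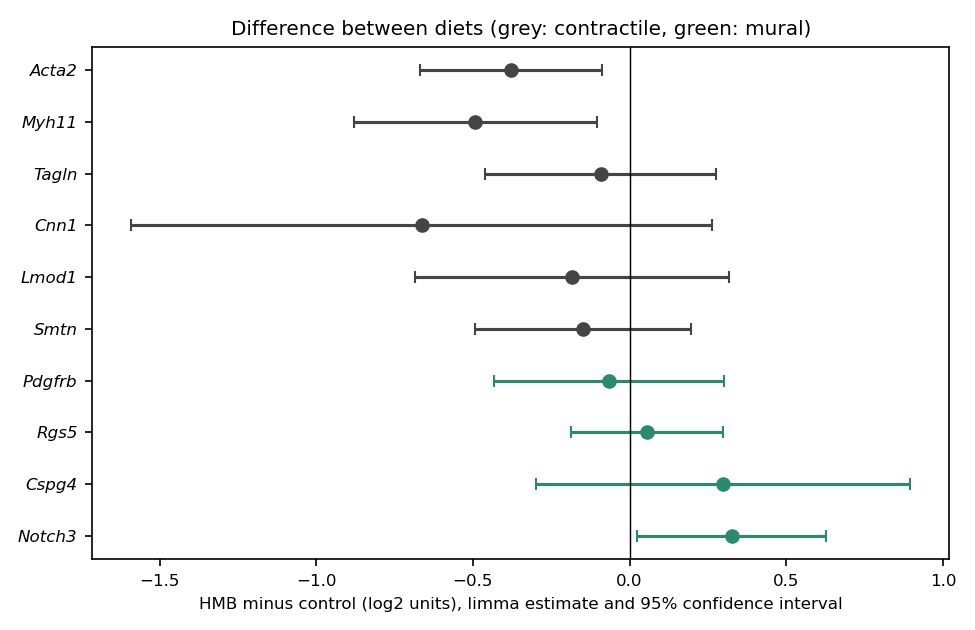
HMB minus control in log2 units for each gene (points, limma estimates over 14 arrays) with 95% confidence intervals (bars), contractile genes in grey and mural genes in green. The intervals of Acta2 (-0.67 to -0.09), Myh11 (-0.88 to -0.10) and Notch3 (0.02 to 0.63) leave out 0, before adjustment over all genes, and the other 7 include it.

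Of the mural genes, Pdgfrb, the receptor through which PDGF-B recruits pericytes, was between 11.35 and 12.18 in control (median 11.76) and between 11.21 and 12.10 in HMB (median 11.70). The ranges nearly coincided. The difference was -0.07 (95% confidence interval -0.43 to 0.30), and it turned with the scaling as given above. Rgs5, a regulator of G protein signaling enriched in pericytes, had the smallest spread of the members. It was between 14.32 and 14.93 in control (median 14.56) and between 14.52 and 14.82 in HMB (median 14.59), with a difference of 0.06 (14.56 ± 0.19 and 14.62 ± 0.10) that was 0.12 without control 4 and 0.02 without control 6. Its interval, -0.19 to 0.30, was the narrowest of the 10.

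Cspg4, the proteoglycan NG2 on the pericyte surface, varied widely under the intron percentile. It was between 6.59 and 8.27 in control (median 7.45) and between 7.32 and 8.42 in HMB (median 8.02). In control, arrays 1, 4 and 6 lay near the top of that range and control 7 at the bottom. The difference was 0.30 (95% confidence interval -0.30 to 0.90), and without control 7 it was 0.13.

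Notch3, the Notch receptor of mural cells, was between 7.28 and 8.01 in control (median 7.78) and between 7.81 and 8.28 in HMB (median 8.03). The 7 HMB arrays were all above the control mean but overlapped the upper controls, and the lowest controls were control 7 and control 2. The difference was 0.33 (7.71 ± 0.29 and 8.04 ± 0.16, 95% confidence interval 0.02 to 0.63, adjusted p 0.990 by limma), and without control 7 it was 0.25. Notch3 too was under the intron percentile on all 14 arrays.

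Across arrays, after removal of the group means, Acta2, Myh11, Tagln and Cnn1 rose and fell together. Their 6 pairwise Pearson correlations were 0.61 to 0.83 over 14 arrays (Spearman 0.51 to 0.74), whereas the median correlation of these genes with all other genes was near 0 (-0.01 to 0.02). Ranked by correlation among all other genes over 14 arrays, HMB 1 included, Tagln was number 5 for Acta2 and number 4 for Myh11. Other pairs of these genes ranked lower. Cnn1 was number 13 for Acta2 and number 159 for Myh11. For Cnn1, Acta2 was number 34, Tagln number 35 and Myh11 number 302. Of 45 pairs of members, 3 passed a two-sided permutation test with adjustment over the 45: Acta2 with Tagln (r 0.83, permutation p 0.00306, adjusted p 0.0459, rho 0.62, permutation p 0.0241, adjusted p 0.272), Myh11 with Tagln (r 0.81, permutation p 0.00109, adjusted p 0.0459, rho 0.73, permutation p 0.00447, adjusted p 0.102) and Tagln with Cnn1 (r 0.75, permutation p 0.00286, adjusted p 0.0459, rho 0.74, permutation p 0.00455, adjusted p 0.102). By Spearman 0 pairs passed after adjustment. Without the 2 arrays farthest from the median of the first gene, these 3 correlations were 0.51, 0.55 and 0.74. HMB 1 was low in all 4 genes. Without it the 6 correlations were 0.43 to 0.71 and 0 pairs passed. With any of 9 other arrays left out 0 pairs passed as well, while the 6 correlations there were 0.53 to 0.85. Without control 3, 5, 6 or 7 the counts were 4, 2, 1 and 1.

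**Figure D3:**
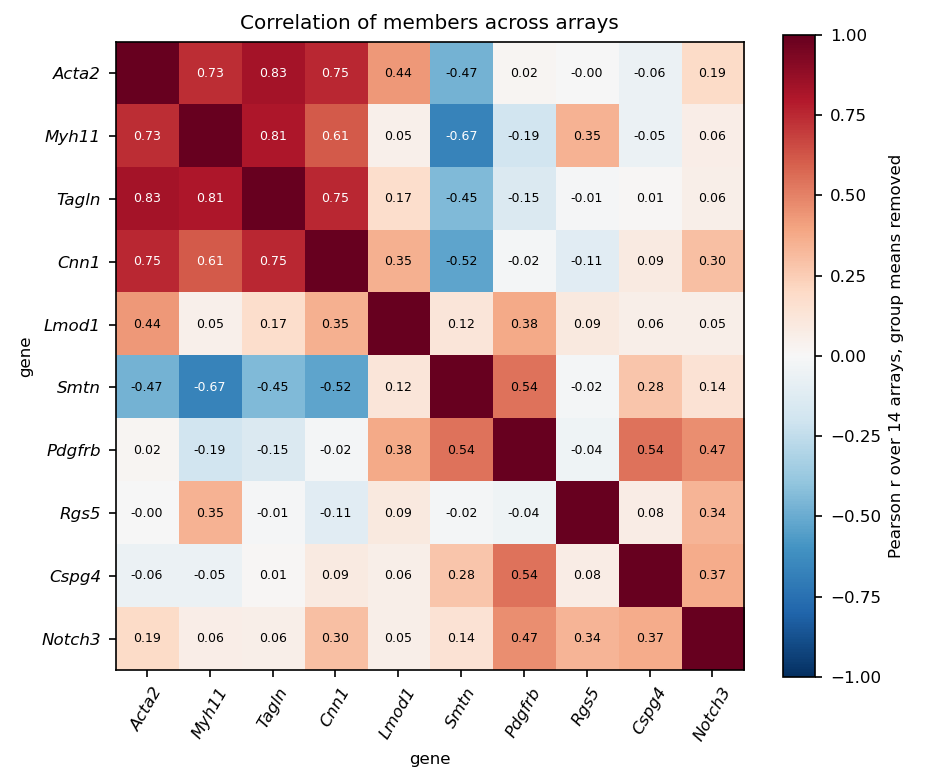
Pearson correlation of every pair of the 10 genes over 14 arrays with group means removed (color and number in each cell). Acta2, Myh11, Tagln and Cnn1 form a block of 0.61 to 0.83, and Smtn runs opposite to all 4 (-0.67 with Myh11).

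Lmod1 correlated with Acta2 at 0.44 and with Myh11 at 0.05. Without HMB 1 its correlation with Acta2 was 0.46, above those of Acta2 with Myh11 (0.43) and of Myh11 with Cnn1 (0.44). Its correlations with Myh11, Tagln and Cnn1 were then -0.13, 0.02 and 0.29, below the range of the block (0.43 to 0.71). Smtn ran opposite, at -0.67 with Myh11 (permutation p 0.0196, adjusted p 0.147, rho -0.56, permutation p 0.0477, adjusted p 0.314) and -0.45 to -0.52 with the other 3, none past the threshold. Without HMB 1, where Smtn was the highest of the HMB arrays, it was -0.59 with Myh11, -0.42 with Cnn1, -0.29 with Acta2 and -0.25 with Tagln. Between the 4 block genes and the 4 mural genes the correlations were -0.19 to 0.35, with 0 of 16 pairs past the permutation threshold. Among the mural genes they were -0.04 to 0.54, with 0 of 6 pairs past it. The highest was Pdgfrb with Cspg4 (r 0.54, permutation p 0.0618, adjusted p 0.309, rho 0.47, permutation p 0.106, adjusted p 0.436).

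**Figure D4:**
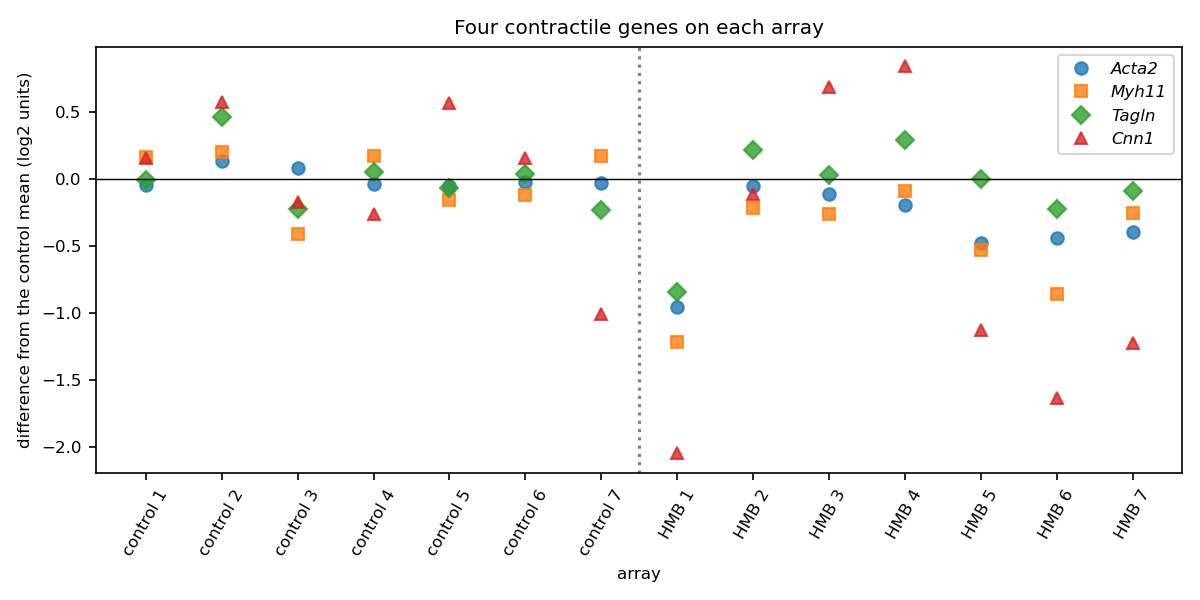
Difference of Acta2, Myh11, Tagln and Cnn1 from their control mean on each of the 14 arrays in log2 units (symbols by gene, dotted line between diets). On HMB 1 all 4 genes lie below the control mean and are at their lowest of all arrays, while HMB 2, 3 and 4 hold values near the controls.

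Among 4599 genes that exceeded the intron percentile on at least 7 arrays, Tns2, a tensin of focal adhesions, was most like the mean of the 6 standardized contractile genes (r 0.87, without HMB 1 0.82, over 14 arrays with group means removed). Its own difference between diets was 0.0075. Wdfy3 (0.79), Eps15l1 (0.74) and Adarb1 (0.71) followed, Lmbrd2, Rnf169, Zdhhc16, Mrps31 and Mcts1 came next, and number 10, Scamp1, was at 0.66. Without HMB 1 Mcts1 fell to 0.37, Scamp1 to 0.51, Rnf169 to 0.56 and Lmbrd2 to 0.59. Wdfy3, Eps15l1, Adarb1, Zdhhc16 and Mrps31 were then at 0.64 to 0.76. The mean of the 4 mural genes was most like Cox5b, a subunit of cytochrome oxidase (r 0.94), Fndc5, the precursor of irisin (0.93), Gcdh (0.92), Ogdh of the citric acid cycle (0.91), Igf2r (0.91) and Serpinf1 (0.90). Gatd3a, the calcitonin gene-related peptide coreceptor Ramp1 (0.88, also on the smooth muscle list), Fmod and the mitochondrial carrier Slc25a11 completed the first 10. The mural mean was lowest on control 7 (9.97) and control 2 (10.04), against 10.36 to 10.68 on the other controls and 10.30 to 10.73 on HMB arrays. The likenesses to the mural mean were not recomputed without control 7 or control 2, so how far they rest on these arrays is not known. All these correlations describe the same 14 arrays and carry no test.

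The mean of 9 slow fiber genes is set beside the mural mean here, a comparison chosen after the values were seen. Control 2 had the lowest slow fiber mean (7.23) and a mural mean of 10.04. HMB 3 and HMB 5, with slow fiber means of 8.85 and 9.68, had mural means of 10.43 and 10.30, but control 3, at 9.74, had 10.52. At the other end, HMB 4 (16.18), control 4 (14.65) and HMB 7 (13.83) had mural means of 10.64, 10.68 and 10.73. Control 7 did not follow, with 12.13 and 9.97, and neither did HMB 2, with 10.96 and 10.71. The part of fiber composition in the mural values was not tested.

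**Figure D5:**
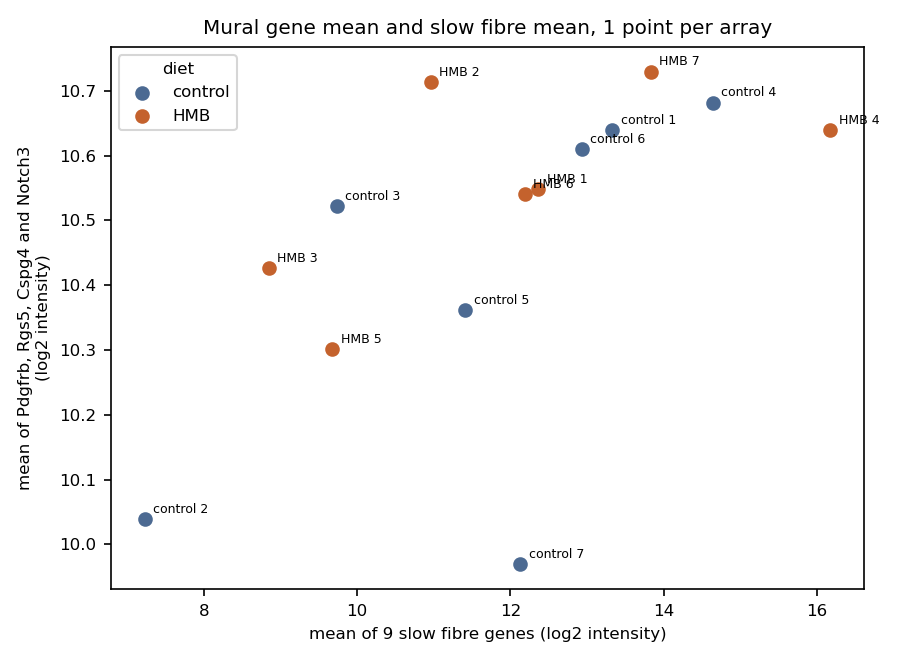
Mean of Pdgfrb, Rgs5, Cspg4 and Notch3 (vertical axis, log2 intensity) against the mean of 9 slow fiber genes (horizontal axis, log2 intensity), 1 point per array, control in blue and HMB in orange. Control 2 is lowest on the horizontal axis (7.23) with a mural mean of 10.04, and control 7 has the lowest mural mean (9.97) at a slow fiber mean of 12.13.

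Other genes of the smooth muscle program did not pass the threshold either. Of 32 listed, 27 were measured and 0 passed limma's adjusted threshold in either direction. By mean 17 were lower and 10 higher, with a median difference of -0.07. Of the 27, 12 stayed under the intron percentile on all arrays. The smallest p belonged to Ppp1r12a, the targeting subunit of myosin phosphatase (-0.39, 95% confidence interval -0.72 to -0.06, with 7 of 7 HMB arrays below the control mean), Cnn2, a widely expressed calponin (-0.89), and Flna, an actin cross-linker (-0.34). Ppp1r12a was highest on control 7 (12.64, other controls 11.66 to 12.03), and without that array it differed by -0.28. Cnn2 and Flna were also highest there (10.56, other controls 7.25 to 8.68, and 13.96, other controls 12.54 to 13.35). Without control 7 they differed by -0.51 and -0.19. Cnn2 was under the intron percentile on all 14 arrays. Myosin light chain kinase Mylk differed by -0.19, the regulatory light chain Myl9 by -0.26 and caldesmon Cald1 by -0.17, and all 3 intervals included 0. Myl9 was at -0.02 without control 6 and -0.48 without HMB 2. Of SRF, myocardin and partners 10 of 11 were measured, 0 passed, and 8 were lower by mean (median -0.06). Srf was at 12.35 ± 0.31 and 12.25 ± 0.30, a difference of -0.10 that was 0.0052 without HMB 4 and -0.21 without control 7. Myocd was at 3.26 ± 0.69 and 3.20 ± 0.44, below the intron median, so its level was not resolved. The smallest p of that list were those of the transcription factors Tbx18, Foxs1 and Elk1. Tbx18 and Foxs1 too lay below the intron median on all 14 arrays and were not resolved. Elk1, under the intron percentile on every array, differed by -0.18 (-0.07 without control 3 and -0.26 without control 6).

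Other pericyte genes had a positive median difference, 0.11, with 15 higher and 9 lower by mean of 24 measured and 0 past the adjusted threshold. Of the 24, 16 stayed under the intron percentile on all arrays. The smallest p were those of the channel Trpc6, Higd1b and Ndufa4l2, all 3 under the intron percentile on every array. Trpc6 was below the intron median on all 14 arrays and was not resolved. Higd1b, above that median on 8 arrays, differed by 0.72 (95% confidence interval -0.0065 to 1.45) and Ndufa4l2 by 0.48, or 0.32 without control 7. Of the potassium channel of pericytes, the pore Kcnj8 and its regulator Abcc9 differed by 0.45 (-0.11 to 1.02) and 0.11 (-0.16 to 0.38), and without control 7 by 0.28 and 0.03. On the ligand side Pdgfb was at 8.81 ± 0.60 and 8.82 ± 0.39, and all 4 measured genes of the PDGF list (Pdgfb was among them, with Pdgfd at 0.31, Pdgfa at 0.13 and Pdgfc at 0.10) had a higher mean, 0 of them past the threshold. Without control 7 Pdgfb (-0.13) and Pdgfa (-0.03) were lower, and without HMB 4 Pdgfc (-0.11). Of 16 Notch genes other than Notch3, 11 had a lower and 5 a higher mean (median -0.13), 0 passed, and the smallest p were those of the Notch glycosyltransferase Lfng (-0.74) and the receptors Notch4 and Notch1 (-0.27). Lfng reached 9.80 on control 7, above the other controls (7.41 to 8.09), and without this array it differed by -0.45. Notch4 exceeded the intron median on 1 array and was not resolved. Of the 16, 14 stayed under the intron percentile on all arrays, Lfng and Notch1 among them. The ligands Jag1 (-0.04) and Dll4 (-0.09) and the targets Heyl (0.27), Hey1 (-0.18) and Hes1 (0.22) had intervals that included 0. The signs of Jag1, Dll4 and Hes1 each turned without 1 array (control 6, HMB 4 and control 6). All of these ligands and targets were under the intron percentile on every array.

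Cell types that neighbor mural cells were read beside these values. Endothelial markers had a mean of 10.01 ± 0.12 in control (range 9.76 to 10.15) and 9.96 ± 0.12 in HMB (range 9.80 to 10.13), with 0 of 21 past the adjusted threshold and a median difference of -0.05. Cdh5, the cadherin of endothelial junctions, was above the intron percentile on 14 arrays and differed by -0.11 (95% confidence interval -0.40 to 0.18, and -0.21 without control 2). The smallest p of this list were those of Plvap (-0.57), Mmrn2 (-0.27) and Cldn5 (-0.62), all under the intron percentile on every array. On control 7 Plvap was at 10.41 (other controls 9.04 to 9.93) and Cldn5 at 9.98 (other controls 7.12 to 9.28). Without control 7 both differed by -0.44. On HMB 1, the array lowest in contractile genes, the endothelial mean was 10.01. Fibroblast and matrix markers were at 10.81 ± 0.36 and 10.55 ± 0.43 (ranges 10.50 to 11.57 and 9.89 to 11.28). By mean 13 of 18 were lower, led by the collagens Col15a1 at -0.92, Col14a1 at -0.72 and Col3a1 at -0.68. Col3a1 was at -0.44 without control 3 and -0.98 without HMB 4. Col15a1 and Col14a1 were under the intron percentile on every array, and Col3a1 was above it on all 14. Schwann cell markers were at 7.95 ± 0.17 and 7.27 ± 0.54 (ranges 7.71 to 8.26 and 6.13 to 7.60), the same direction as Acta2 and Myh11. By mean 11 of 11 were lower, 7 of them at an unadjusted p under 0.05 by limma (against 2.19% of all genes). Of the 11, 8 stayed under the intron percentile on all arrays. HMB 5 was the lowest array (6.13, other HMB arrays 7.05 to 7.60). The smallest p were those of the myelin genes Ncmap (-1.07), Pmp22 (-0.88) and Mbp (-1.08), or -0.82, -0.63 and -0.74 without HMB 5. Ncmap was under the intron percentile on every array. Genes of regenerating fibers were at 9.09 ± 0.79 and 9.18 ± 0.28 (ranges 8.005 to 10.65 and 8.87 to 9.67). Adipocyte markers were highest on control 7 (13.37, other controls 8.13 to 10.11, HMB arrays 8.18 to 11.84), the array lowest in the mural mean, while HMB 7, the next highest in adipocyte markers (11.84), had the highest mural mean (10.73). T cell markers were at 9.87 on control 7, at 4.81 to 5.35 on the other controls and at 4.59 to 5.49 on HMB arrays. Macrophage markers were at 8.83 ± 0.60 and 8.77 ± 0.74. Keratinocyte markers were at 3.79 ± 0.12 and 4.11 ± 0.36, with Krt5 and Krt14 under the intron percentile on all arrays. In none of these lists did a gene pass limma's adjusted threshold. The part of these cell types in the values of the members was not tested.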

How the data were processed

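Per the labels, total RNA was labeled as sense-strand cDNA and hybridized to 14 arrays. The authors deposited 1 table of probeset values. These deposited values were read as log2 intensities from their range (highest value per array 19.21 to 19.54). Background correction, normalization and summarization are not given in the sources used here, so no fold is printed. Of 28846 probesets, 19572 with exactly 1 gene symbol in the platform annotation were kept and averaged per gene (19505 genes, 55 with several probesets, 2634 gene probesets without a symbol left out). No filter on dim genes was applied. The columns of each array were assigned by the sample title.

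The groups were compared in R 4.3.3 by limma 3.58.1 with its moderated test (lmFit, then eBayes; two-sided p), adjusted by Benjamini-Hochberg over all genes. Tested on simulated data of the same size (19505 genes), it recovered 16% of planted log2 changes of 0.5, 62% of 1 and 92% of 2. All changes, up to 3 log2 units, were planted together in noise drawn independently for each gene. The larger changes ease the adjustment for the smaller ones, so these shares are not the power for a few small changes in these arrays. Correlations used 100000 within-group permutations in Python 3.11.15. Array data give no read depth, and precision is set by how many animals were sampled. The members and gene lists were chosen with earlier results of these data known. Genes named beside the members were the 3 of smallest p of each list and the 10 most like each group of members (for the immune, adipocyte, keratinocyte, fast, slow and regenerating fiber lists only the mean is given), and a few further genes were named for their role (Mylk, Myl9, Cald1, Srf, Myocd, Kcnj8, Abcc9, Pdgfb, Jag1, Dll4, Heyl, Hey1, Hes1, Cdh5, Krt5 and Krt14). Alternatives were renewed quantile normalization, median centering, 2 filters, the brightest probeset, trend and robust variance, array weights, the unpaired t statistic of the methods, a replicate block and leaving out arrays. No 2 arrays were duplicates (highest correlation 0.989).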

Additional observations from a re-analysis of the deposited data

Results flagged for a closer look

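In 20 groups of 7 arrays (10 genes by 2 diets), 1 array lay farther from the others than Dixon's 95% critical value for 7 values allows. Tagln on control 2 was at 12.13, with the other controls at 11.43 to 11.71, a gap of 0.598 of the range. Chance flags about 1 in 20 such groups. Without control 2 the difference of Tagln between diets was -0.015 in place of -0.09.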

How the results depend on the processing

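Under every alternative run, 0 genes and 0 members passed the adjusted threshold. Without a filter, 798 to 1050 of 19505 genes had an unadjusted p under 0.05 by limma, and 853 by the unpaired t statistic of the methods. With the filters at the median gene mean and the intron percentile, 403 of 9753 and 191 of 5590 genes did by limma. The median difference of the members stayed negative (-0.17 to -0.08 with each array left out, -0.05 with median centering, -0.11 with renewed quantile normalization). Acta2 (-0.43 to -0.28), Myh11 (-0.56 to -0.37) and Notch3 (0.25 to 0.38) kept their sign with each array left out, but Notch3 lost its unadjusted p under 0.05 under the replicate block, trend and robust variance, array weights and without control 2, control 7, HMB 3, 5 or 7, or control 7 with HMB 4, and Acta2 with median centering. Pdgfrb turned with median centering (0.0050) and ran from -0.14 to 0.012 with each array left out (positive without control 3 or HMB 5), and Tagln ran from -0.16 to 0.034 (positive without HMB 1). The gap of Acta2 between the groups, an outcome added after seeing the data, was -0.0046 with renewed quantile normalization and -0.32 with median centering, so the groups then overlapped. The count of correlated pairs, 3 of 45, was 1 with renewed quantile normalization, 5 with median centering, 1 without control 7 and HMB 4 and 0 to 4 with each array left out, 0 without control 1, 2 or 4 or without any single HMB array. The cause was not tested. The filter at the intron percentile kept 6 members and 2 of their 15 pairs passed. Equal replicate numbers did not mark related arrays (2 of 7 correlations of deviations over 0.1, and 1 of 14 arrays closest to its own number). With the number as a replicate block 0 genes passed, the median difference was -0.12 and 0 of 45 pairs passed, over 7 differences with all their orders, although the 6 correlations among Acta2, Myh11, Tagln and Cnn1 were 0.78 to 0.92. Signal under the intron percentile limits what can be said of Cnn1, Lmod1, Cspg4 and Notch3 on all arrays and of Myh11 on 13 of 14. Leaving out arrays for named genes outside the members was added after seeing the data.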
